A study of Mus musculus with 11 samples.

Results

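The BBSome and its chaperones were taken as 10 genes of the count table, selected by gene name: the subunits Bbs1, Bbs2, Bbs4, Bbs5, Bbs7, Ttc8, Bbs9 and Bbip1 and the chaperones Bbs10 and Bbs12. These were 10 of the 14602 genes listed. All 14602 passed the filter on low counts, so passing it does not set the members apart. The samples were RPE/choroid of C57BL/6J mice, isolated from posterior eye cups after the neural retina was removed. The 5 laser treated samples came from mice given nanosecond laser (2RT) in 1 eye at the age of 9 months, with collection 3 months later at 12 months, and the 6 naïve control samples came from untreated mice of the same age. RNA was pre-amplified with a SmartSeq v4 kit and made into Nextera XT libraries. The labels did not say whether each sample was a separate animal, so the p-values given here measure the spread between these samples, which may be partly technical. The 10 genes were chosen with their difference between the laser treated and naïve control groups already known. That difference is therefore described here, and counts of members by p-value are given without being read as a test.

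The BBSome is a coat complex that moves membrane proteins, receptors among them, out of and along the cilium. It is recruited to membranes by the small GTPase Arl6, and it is assembled with the help of Bbs10, Bbs12 and Mkks, which work with the CCT chaperonin. Loss of these genes in people causes Bardet-Biedl syndrome, of which retinal degeneration is a part, and the outer segment of the photoreceptor, the cell that the RPE serves, is a modified cilium.

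The start regions of Bbs7, Bbs4 and Bbip1 are shown because Bbs7 and Bbs4 were the members that varied most clearly with photoreceptor transcripts and Bbip1 was the member whose groups did not overlap. The stretches lie before the RefSeq start of each gene (GRCm38.p6), leave out bases that belong to an annotated exon and run 5′ to 3′ on the gene's strand. Capitals mark a match to the X-box, the motif of the RFX factors that drive many ciliary genes.
Bbs7, chr3:36613478-36613639, minus strand: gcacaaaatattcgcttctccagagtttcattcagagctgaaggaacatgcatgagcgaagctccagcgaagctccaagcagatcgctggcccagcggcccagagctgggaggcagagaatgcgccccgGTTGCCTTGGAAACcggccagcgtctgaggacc
Bbs4, chr9:59353509-59353758, minus strand: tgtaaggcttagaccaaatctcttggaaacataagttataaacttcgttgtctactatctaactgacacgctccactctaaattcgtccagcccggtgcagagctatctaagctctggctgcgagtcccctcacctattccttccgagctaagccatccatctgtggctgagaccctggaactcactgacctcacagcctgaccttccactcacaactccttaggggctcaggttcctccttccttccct
Bbip1, chr19:53944628-53944872, minus strand: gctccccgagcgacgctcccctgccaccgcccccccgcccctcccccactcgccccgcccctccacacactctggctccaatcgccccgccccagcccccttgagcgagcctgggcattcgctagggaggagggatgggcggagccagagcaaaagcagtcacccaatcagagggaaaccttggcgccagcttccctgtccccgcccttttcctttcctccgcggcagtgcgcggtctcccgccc
The X-box was searched on both strands of windows from 250 bases before to 50 bases after the start, as GTTNCC and GGNAAC separated by 0 to 3 bases, and in a relaxed form as GTNNCC and GGNNAC with the same spacing. The strict form was present in 1 of the 10 members, Bbs7, at positions -121 to -108 counted from its start, and in 0.804% of 32851 windows. The relaxed form was present in 3 of the 10 members and in 3.86% of windows. The 2 further relaxed matches lay after the start and are shown to compare them with that of Bbs7.
Bbs1, chr19:4906613-4906626: GTTGCCAAGGCGAC
Bbs4, chr9:59353472-59353485: GTCGCCCGGGAAAC
The Bbip1 stretch held 71.0% G and C and began beside an annotated exon of Shoc2, which is read from the other strand. A match is a description of the letters and not of a bound site, and a window with none says nothing on RFX factors.

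Levels are given as CPM (counts scaled to library size) adjusted by the TMM method. The libraries held 25700881 to 38755994 counts in all, and the members were counted between 160 times, for Bbs10, and 4635 times, for Bbs7, in a library. The 12 RPE markers summed to between 77346 and 131044 CPM and were the most abundant marker list in every library. The 16 photoreceptor markers, all of them detected, summed to between 6885 and 25574 CPM in naïve control libraries and between 4726 and 21069 CPM in laser treated libraries. The 4 Schwann cell markers tested summed to between 126.7 and 384.8 CPM in naïve control libraries and between 284.9 and 967.9 CPM in laser treated libraries. Most of this sum came from Sox10, with means of 132 and 203 CPM in the 2 groups, and Mbp, with 59.0 and 275 CPM. Of the 4 markers, 1 had a negative log2 fold change. In these bulk samples, fewer cells of a type and less RNA per cell cannot be told apart.

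Of the 10 members, 9 had a negative log2 fold change in laser treated against naïve control samples, as did 51.5% of all genes. Their median was -0.39 on the log2 scale, beside -0.02 over all genes. At an unadjusted p under 0.05, 3 members were lower and 0 were higher, beside 7.68% and 8.24% of all genes. The 3 became 1 without naïve control library 3 or laser treated library 1, 2 or 5, and with each library left out 7 to 9 members were negative. At an adjusted p under 0.05, edgeR called 0 of the 14602 genes, with 2325 at an unadjusted p under 0.05, and DESeq2 called 502 (3.44%), of which 1 was a member. DESeq2 gave no adjusted p for some genes, so 3.44% is a share of all genes listed. Since the members were chosen on this contrast, shares above those of all genes can follow from the choice, and these counts carry no further reading.

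**Figure D1:**
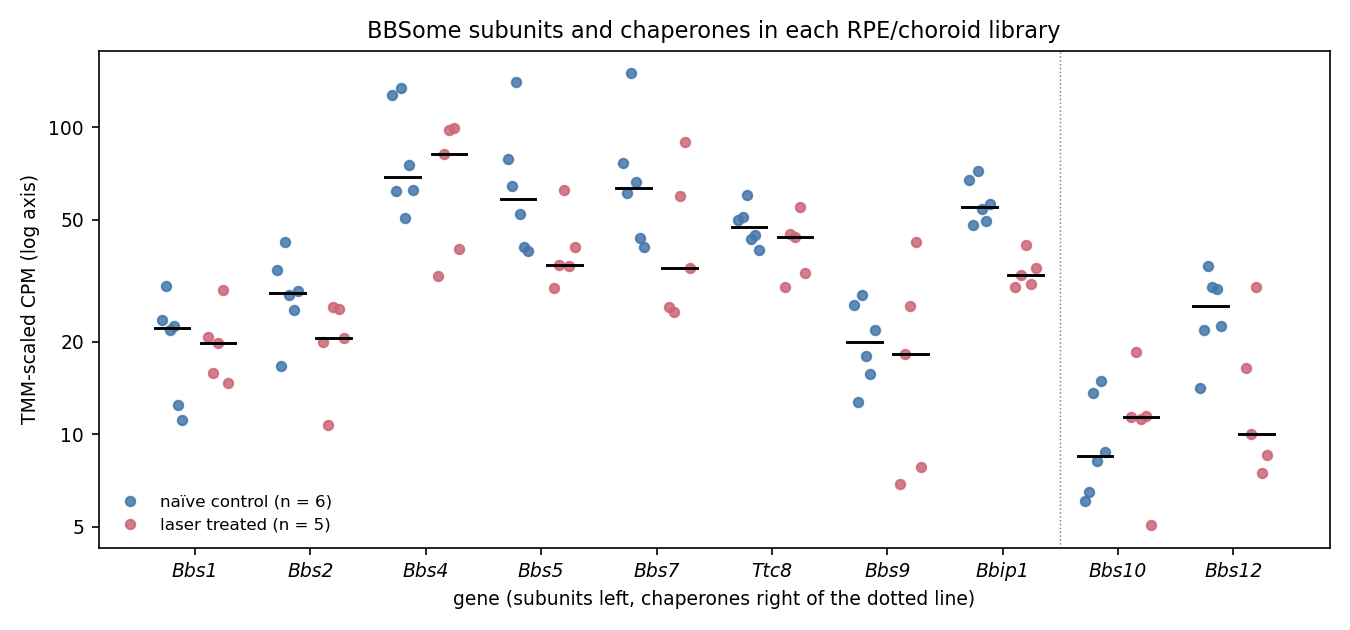
TMM-scaled CPM (log axis) of the 8 BBSome subunits and 2 chaperones in each of 6 naïve control and 5 laser treated libraries, with a line at each group's median. The groups overlapped for each gene except Bbip1, whose highest laser treated library, at 41.4 CPM, was below its lowest naïve control library, at 47.9 CPM.

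Bbip1, which encodes the smallest subunit of the complex (chr19:53929861-53944627, minus strand), was the member whose groups stood apart. Its naïve control libraries ranged from 47.9 to 72.1 CPM with a median of 55.0 CPM. The laser treated libraries 1 to 5 held 30.2, 32.9, 41.4, 30.8 and 34.7 CPM. Every laser treated library was therefore below every naïve control library, a pattern that 0.863% of all genes shared. The log2 fold change was -0.76 ± 0.15 (SE, n = 6 and 5), and it stayed between -0.85 and -0.71 when each library was left out in turn. An annotated first exon of Bbip1 overlaps that of Shoc2 on the other strand, and the library kit does not mark strand. Shoc2 itself had a log2 fold change of -0.24 ± 0.16 (edgeR, adjusted p = 0.502), and Pdcd4, which abuts Bbip1 on its other side, -0.11 ± 0.14 (adjusted p = 0.788).

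The subunits Bbs2, Bbs7 and Bbs9 form the core on which the complex is built. Bbs2 ranged from 16.6 to 42.3 CPM with a median of 28.8 CPM in naïve control libraries. In laser treated libraries 1 to 5 it held 19.98, 10.7, 26.0, 25.6 and 20.5 CPM, all of them below the naïve control median, and its log2 fold change was -0.51 ± 0.26 (SE, n = 6 and 5). Bbs7 (chr3:36573142-36613477, minus strand) ranged from 40.8 to 149.7 CPM with a median of 63.6 CPM in naïve control libraries, the top value being that of library 3. Its laser treated libraries were split. Libraries 1, 2 and 5 held 25.9, 25.0 and 34.7 CPM, below every naïve control library, while libraries 3 and 4 held 59.5 and 89.2 CPM. The log2 fold change of Bbs7 was -0.64 ± 0.39, and ranged from -1.02, without laser treated library 4, to -0.31, without naïve control library 3. Bbs9 had a log2 fold change of -0.01 ± 0.42, with an SD of 6.11 CPM in naïve control and 14.6 CPM in laser treated libraries, a difference in spread that was not tested. With a library left out the log2 fold change went from -0.49, without laser treated library 4, to 0.21, without laser treated library 1. Its naïve control libraries ranged from 12.7 to 28.3 CPM (median 19.9 CPM), and its laser treated libraries held 6.90, 18.2, 26.2, 42.2 and 7.81 CPM, so that laser treated libraries lay both below and above the whole control range.

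Bbs5, Bbs4, Ttc8 and Bbs1 complete the subunits. Bbs5, which binds phosphoinositide lipids, ranged from 39.4 to 140.3 CPM in naïve control libraries (median 58.3 CPM). It held 29.98, 35.5, 62.2, 35.2 and 40.7 CPM in laser treated libraries 1 to 5, with 3 of these below every naïve control library, and its log2 fold change was -0.77 ± 0.32 (SE, n = 6 and 5), or -0.45 without naïve control library 3. Bbs4 and Ttc8 are built of tetratricopeptide repeats. Bbs4 (chr9:59321990-59353508, minus strand) ranged from 50.6 to 133.6 CPM in naïve control libraries (median 68.9 CPM) and held 32.8, 81.6, 98.0, 99.6 and 40.2 CPM in laser treated libraries, with libraries 1 and 5 below every control and a log2 fold change of -0.27 ± 0.34. With each library left out it ranged from -0.45, without laser treated library 4, to -0.094, without laser treated library 1. Ttc8 spanned a narrow range in naïve control libraries, from 39.6 to 60.3 CPM (median 47.2 CPM), and held 30.1, 44.7, 43.9, 54.8 and 33.6 CPM in laser treated libraries. Its log2 fold change of -0.22 ± 0.17 again came with libraries 1 and 5 below every control, and was -0.12 without library 1 and -0.35 without library 4. Bbs1, the subunit that binds Arl6, ranged from 11.1 to 30.3 CPM (median 22.2 CPM) in naïve control and held 20.8, 15.8, 19.8, 29.5 and 14.7 CPM in laser treated libraries. No laser treated library left the control range, and the log2 fold change of Bbs1 was -0.01 ± 0.28, between -0.21 and 0.13 with a library left out.

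The chaperones differed in sign in the fit of all libraries. Bbs12 ranged from 14.2 to 35.4 CPM in naïve control libraries (median 26.1 CPM) and held 16.5, 10.0, 30.1, 7.45 and 8.54 CPM in laser treated libraries 1 to 5. Libraries 2, 4 and 5 were below every naïve control library and library 3 was near the top of the control range. The log2 fold change of Bbs12 was -0.82 ± 0.36 (SE, n = 6 and 5). With each library left out it ranged from -1.27, without laser treated library 3, to -0.67, without laser treated library 4. The first exon of Bbs12 overlaps that of Cetn4, a centrin gene, which had a log2 fold change of -0.86 ± 0.22 (edgeR, adjusted p = 0.172). Bbs10 was the only member with a positive value in the fit of all libraries, at 0.25 ± 0.34, and was at 0.019 without laser treated library 2. It ranged from 6.06 to 14.9 CPM in naïve control libraries (median 8.46 CPM) and held 11.4, 18.5, 11.2, 11.5 and 5.05 CPM in laser treated libraries, spanning the control range on both sides.

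**Figure D2:**
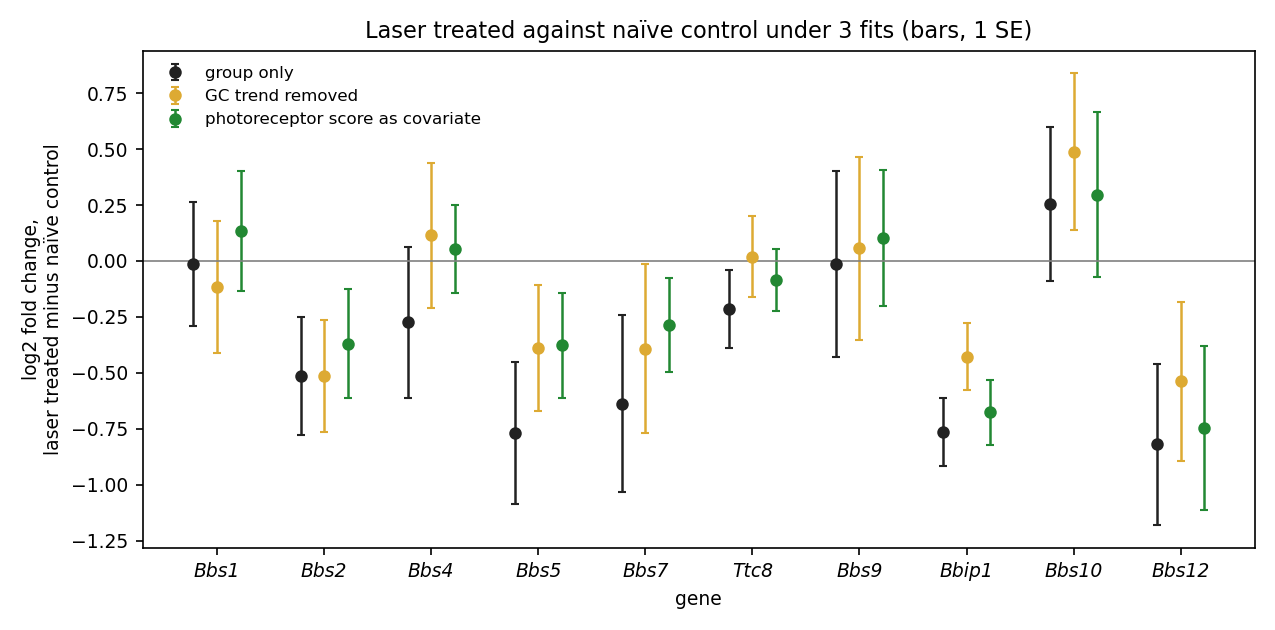
Log2 fold change of each member, laser treated minus naïve control, with bars of 1 SE, in the fit with group only, with the trend on GC content removed and with the photoreceptor score as a covariate. Bbs2, Bbs5, Bbs7, Bbip1 and Bbs12 stayed negative in all 3 fits. In that order of fits, Bbip1 was at -0.76, -0.43 and -0.68 and Bbs12 at -0.82, -0.54 and -0.75. Bbs2 was at -0.51, -0.51 and -0.37, Bbs5 at -0.77, -0.39 and -0.38, and Bbs7 at -0.64, -0.39 and -0.29.

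The members were of lower GC content than most genes, with a median of 44.7% over their transcripts beside 49.8% over 14252 genes. Across the table, the 3564 genes under 45% GC had a median log2 fold change of -0.30 and the 10688 others 0.10. With the trend on GC content removed from each library, 6 of the 10 members were negative, beside 48.3% of all genes, and their median was -0.25, beside 0.02. Bbip1 was then at -0.43 ± 0.15, Bbs5 at -0.39 ± 0.28, Bbs2 at -0.51 ± 0.25, Bbs7 at -0.39 ± 0.38 and Bbs12 at -0.54 ± 0.35, while Bbs4, Ttc8 and Bbs9 were above 0. The part of GC content in the members' difference was not tested further.

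The first line of each deposited transcript file held a label, R1 or R2, of unstated meaning. R1 stood on naïve control libraries 1 to 3 and laser treated libraries 1 and 2, and R2 on the other 6. Within R1, 9 of the 10 members were lower in laser treated than in naïve control libraries, with a median difference in mean log2 CPM of -0.94. Within R2, 4 of the 10 were lower, and the median was 0.03. Over all genes, 50.8% were lower within R1 and 49.7% within R2, with medians of -0.02 and 0.00. Bbip1 was lower within both labels, at -0.96 and -0.59, as were Bbs12, at -0.79 and -1.13, and Bbs2, at -0.98 and -0.21. Bbs7 went from -1.80 within R1 to 0.22 within R2, Bbs5 from -1.45 to 0.03 and Bbs4 from -0.98 to 0.24. With 3 naïve control libraries against 2 or 3 laser treated ones, neither label was tested on its own. With the label as a covariate in the fit, the median of the members was -0.38.

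The photoreceptor markers moved with the same split. The photoreceptor score, the mean z-score of the log2 CPM of the 16 markers, was lower in laser treated libraries within R1, where it lay between 0.15 and 1.54 in naïve control and between -1.20 and -0.81 in laser treated libraries. Within R2 it lay between -0.73 and -0.10 in naïve control and between -1.20 and 0.86 in laser treated libraries. Of the 16 markers, 15 had a negative log2 fold change in laser treated against naïve control samples over all libraries, with a median of -0.45 and 0 at an adjusted p under 0.05 (edgeR).

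Whether the members varied with photoreceptor transcripts among samples of the same group was tested for every gene in an edgeR fit. Its terms were the group and the score. The choice of the members did not use the slope. The score and this test were chosen after seeing the data, so the p-values are not those of a test planned beforehand. The slope is the change in log2 level per unit of score. All 10 members had a positive slope, with a median of 0.26, beside -0.02 across the table, and 9 or 10 were positive when each library was left out. Adjusted over the 14602 genes at a threshold of 0.05, 2 members were called, both with a positive slope, beside 2.41% of all genes. These were Bbs7, at 0.68 ± 0.11 (SE, adjusted p = 0.00326), and Bbs4, at 0.59 ± 0.11 (adjusted p = 0.00732). Bbs9 and Bbs5 had slopes of 0.62 ± 0.17 (adjusted p = 0.0907) and 0.48 ± 0.12 (adjusted p = 0.053). Ttc8 was at 0.24 ± 0.08 (adjusted p = 0.135), Bbs1 at 0.27 ± 0.15 (adjusted p = 0.465) and Bbs2 at 0.26 ± 0.13 (adjusted p = 0.389). The slopes nearest 0 were those of Bbip1, at 0.14 ± 0.08 (adjusted p = 0.454), and of the chaperones Bbs12, at 0.19 ± 0.20 (adjusted p = 0.741), and Bbs10, at 0.07 ± 0.20 (adjusted p = 0.928). Differences between these slopes were not tested. Bbs7 and Bbs4 were called whichever single library was left out, with adjusted p of at most 0.0431 and 0.0324, and with the label R1 or R2 as a further term, at 0.00411 and 0.0145. DESeq2 called 4 members, all with a positive slope, but over the 14602 genes it called 601 with a positive and 262 with a negative slope. Without naïve control libraries 1 and 3, the libraries farthest from the median of the score, 0 members were called, the slope of Bbs7 being 0.66 (adjusted p = 0.0813) and that of Bbs4 0.54 (adjusted p = 0.216). Without the 4 libraries of highest score, which also include laser treated libraries 3 and 4, 7 libraries over a shorter range of score remained and 0 of 14528 genes were called, so this fit says nothing on the calls. Its slopes were 0.13 for Bbs7 and 0.71 for Bbs4, and 6 of the 10 members were positive, with Bbs2 at -1.16, Bbip1 at -0.24, Bbs12 at -0.20 and Bbs9 at -0.035.

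**Figure D3:**
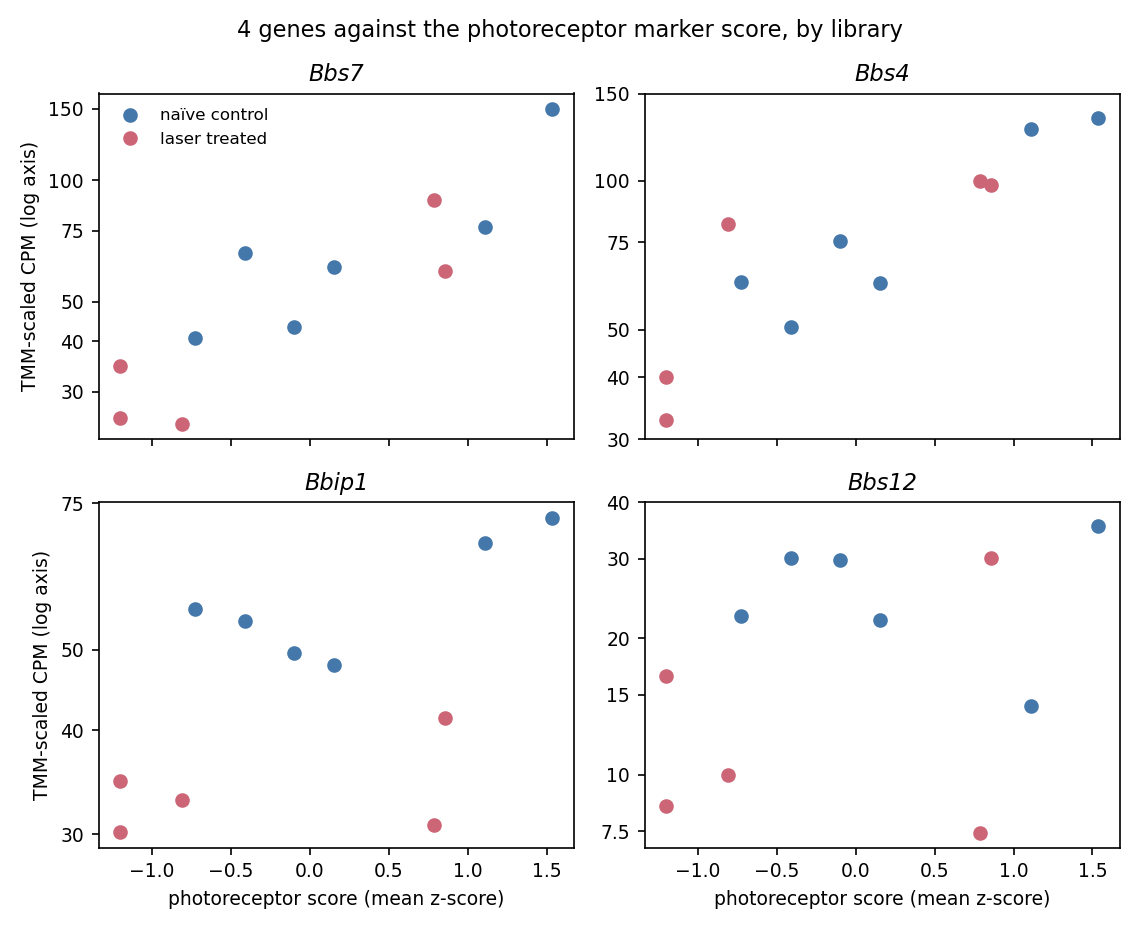
TMM-scaled CPM (log axis) of Bbs7, Bbs4, Bbip1 and Bbs12 against the photoreceptor score, 1 point for each of 6 naïve control and 5 laser treated libraries. Levels of Bbs7 and Bbs4 were higher in libraries of higher score, with slopes of 0.68 and 0.59 log2 units per unit of score. Every laser treated point of Bbip1 lay below every naïve control point, but the groups shared only part of the range of the score. Laser treated libraries 1, 2 and 5 scored below every naïve control library, and naïve control libraries 1 and 3 above every laser treated one.

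With the score as a covariate, the members' median log2 fold change in laser treated against naïve control samples was -0.19, beside -0.01 over all genes, and 6 of the 10 were negative, beside 50.8% of all genes. Bbip1 was then at -0.68 ± 0.14 (SE) and Bbs12 at -0.75 ± 0.37. Bbs5 was at -0.38 ± 0.24, Bbs7 at -0.29 ± 0.21 and Bbs2 at -0.37 ± 0.24, and Bbs4 was at 0.05 ± 0.20. With the trend on GC content removed as well, the median was -0.03 and 5 of the 10 were negative, beside 48.5% of all genes. These were Bbip1 at -0.38 ± 0.15, Bbs12 at -0.49 ± 0.36, Bbs2 at -0.37 ± 0.23, Bbs5 at -0.09 ± 0.22 and Bbs7 at -0.11 ± 0.21. The part of photoreceptor RNA in the group difference was not tested.

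With group means removed, the 45 pairs of members had a median Pearson correlation of 0.35 over the 11 libraries, from -0.20 for Bbs1 with Bbs10 to 0.86 for Bbs4 with Bbs9. Of these, 37 were positive. The points share their library, its depth and its mix of cells, so the correlations are a description. The 5 genes outside the list that most resembled the mean z-score of the members in the same libraries were Mab21l1 (r = 0.97), Ccdc126 (r = 0.97), Nrl (r = 0.97), Grk1 (r = 0.96) and Ric8b (r = 0.96). Nrl encodes the transcription factor that specifies rods, and Grk1 encodes rhodopsin kinase. Nrl is also among the markers of the photoreceptor score.

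The subunits are present in the complex in equal number, and their transcripts were not at equal levels. Per kb of exon, the mean level fell from 23.0 ± 12.9 CPM per kb (SD, n = 11) for Bbs5 to 2.63 ± 0.82 CPM per kb for Bbs1, a ratio of 8.74. These levels divide by all annotated exon bases, of which the assembled fragments covered unequal parts between members, as given below. The effect of unequal coverage on the order was not tested. Below Bbs5, in the order of the mean of log2 levels, came Bbs4 at 13.0 ± 5.52, Ttc8 at 11.9 ± 2.32, Bbip1 at 10.7 ± 3.29, Bbs7 at 11.3 ± 6.66, Bbs12 at 8.45 ± 4.06, Bbs2 at 7.66 ± 2.59, Bbs10 at 3.45 ± 1.35 and Bbs9 at 3.26 ± 1.63 CPM per kb. Neighbours in this order, which was taken from the same libraries, were compared within each library by an exact two-sided sign-flip permutation test. Of the 9 neighbour pairs, 2 differed beyond their spread. Bbs5 was above Bbs4 by 0.80 on the log2 scale (SD 0.55, higher in 10 of 11 libraries, exact p = 0.00293, adjusted over the 9 pairs p = 0.0176), and Bbs2 was above Bbs10 by 1.17 (SD 0.86, 10 of 11 libraries, exact p = 0.00391, adjusted p = 0.0176). The other 7 pairs had exact p from 0.13 to 0.866. The pairs depend on the order. Bbs5 over Bbs4 was called in 8 of the 11 orders with a library left out, and Bbs2 over Bbs10 in 6 of 11. Per kb of the longest annotated transcript the pairs called were Bbs5 over Bbip1, by 0.70, and Bbs4 over Bbs2, by 1.29, and the lowest member was Bbs10. By TPM of the assembled transcripts Bbs4, at a mean of 43.6 ± 20.6 (SD, n = 11), was above Bbs5, at 40.9 ± 20.2, the reverse of the order by counts.

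**Figure D4:**
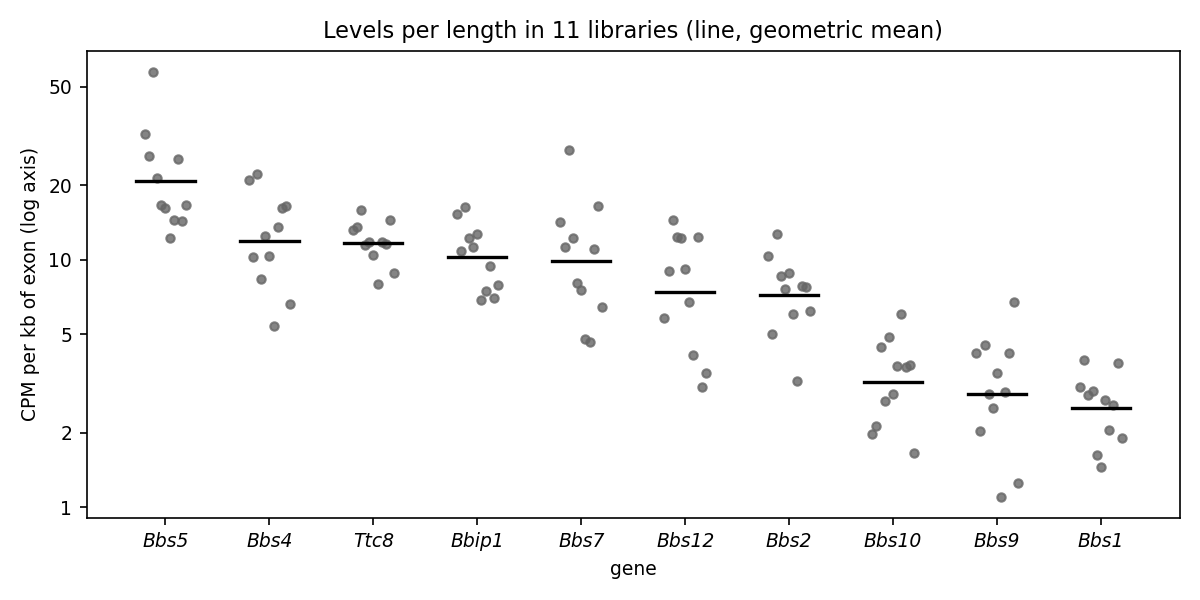
CPM per kb of exon (log axis) of each member in 11 libraries, ordered by the mean of the log2 level, which the line marks. Bbs5 had the highest mean, at 23.0 CPM per kb, and Bbs10, Bbs9 and Bbs1 the lowest, from 3.45 to 2.63 CPM per kb.

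The assembled transcripts deposited for each library show how much of each member was read. Bbs10, a gene with 1 exon, had 80.4% to 95.0% of its exon bases in assembled fragments, and Bbip1 had 58.0% to 94.2%. The longer, many-exon subunits were covered in part, with 10.1% to 24.9% for Bbs9, 11.7% to 62.9% for Bbs7 and 19.5% to 55.8% for Bbs4. Mean coverage per exon base of Bbip1 came to 50.5 ± 11.0 over the 6 naïve control libraries (mean ± SD) and to 32.5 ± 6.70 over the 5 laser treated libraries, with ranges of 32.0 to 63.7 and 26.8 to 43.4 that overlapped, unlike the counts. That of Bbs12 was 48.6 ± 16.4 and 27.2 ± 19.9. These values come from the same reads as the counts.

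The partners of the BBSome were not members and were tested in the same fit. Arl6, the GTPase that recruits the complex, had a log2 fold change of -0.58 ± 0.31 in laser treated against naïve control samples (edgeR, adjusted p = 0.392). Its slope on the photoreceptor score was 0.57 ± 0.08 (adjusted p = 0.00144), called as those of Bbs7 and Bbs4 were. Mkks, the chaperone that works with Bbs10 and Bbs12, was at -0.48 ± 0.18 (adjusted p = 0.224), with a slope of 0.15 ± 0.09 (adjusted p = 0.526). Lztfl1, which regulates BBSome entry into cilia, was at -0.52 ± 0.25 (adjusted p = 0.33), and Ift27, which links the complex to intraflagellar transport, was at 0.09 ± 0.20 (adjusted p = 0.887). With the GC trend removed, Arl6 was at -0.21, Mkks at -0.24, Lztfl1 at -0.15 and Ift27, its sign turned, at -0.13. With the photoreceptor score as a covariate Arl6 was at -0.17, and with both it was at 0.12.

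Of 95 other ciliary genes tested in 9 lists, edgeR called 0 at an adjusted p under 0.05 and DESeq2 called 2, Ift74 and Ahi1. DESeq2 gave no adjusted p for some of the 95, Mks1, Ttc21b and Tmem231 among them. At an unadjusted p under 0.05, 12 were lower and 6 higher in laser treated samples, beside 7.68% and 8.24% of all genes, and their median log2 fold change was -0.08. Among the 15 IFT-B genes, which carry cargo towards the ciliary tip, 12 were negative, 4 of them at an unadjusted p under 0.05, and of the 3 positive genes 1 was, with a median of -0.33 over the list. Their summed level was 458 to 616 CPM in naïve control and 351 to 448 CPM in laser treated libraries. In the 8 CCT chaperonin genes the median was -0.15 with 5 negative, in the 6 IFT-A genes 0.20 with 1 negative, in the 10 ciliary motor genes -0.35 with 8 negative, in the 17 transition zone genes -0.09 with 9 negative, and in the 11 genes for transport of lipidated cargo -0.08 with 8 negative. The 6 RFX and FOXJ1 factors had a median of 0.25 with 1 negative, the 5 ciliary receptor and hedgehog genes 0.18 with 2 negative, and the 17 BBSome partners and other BBS genes -0.05 with 9 negative.

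The genes of smallest p in each list included Ift74 at -0.75 ± 0.20 (edgeR, adjusted p = 0.174, DESeq2 adjusted p = 0.0222), Ahi1, a Joubert syndrome gene of the transition zone, at -0.60 ± 0.15 (adjusted p = 0.172, DESeq2 adjusted p = 0.0167), and the IFT-A gene Ttc21b at -0.94 ± 0.34 (adjusted p = 0.217). In Ahi1 and Ttc21b every laser treated library was below every naïve control library, as in Bbip1. Negative values were also found in Pcm1 (-0.59), Hspb11 (-0.82), Tctex1d2 (-0.62), Arl13b (-0.87), Arl3 (-0.34), Cct8 (-0.27), Tcp1 (-0.21) and Drd1a (-1.53). With the GC trend removed Cct8 and Tcp1 turned to 0.01 and 0.12, and Pcm1 was at -0.28, Tctex1d2 at -0.32, Arl13b at -0.55, Ift74 at -0.44 and Ttc21b at -0.58. Positive values were found in Mks1 (1.08 ± 0.35), Tmem231 (0.97 ± 0.30), Kif17 (1.59 ± 0.90), Rfx1 (0.83 ± 0.32), Rfx2 (1.27 ± 0.80), Sufu (0.79 ± 0.49) and Ift122 (0.44 ± 0.26). Kif17, Rfx2, Sufu and Drd1a (SE 1.06) were low, with means of 1.27, 3.42, 3.60 and 6.65 CPM in naïve control libraries. Their unadjusted p were 0.0976, 0.137, 0.128 and 0.171 (edgeR). None of these 18 genes reached an adjusted p of 0.05 in edgeR.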

How the data were processed

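RPE/choroid RNA of 11 libraries was used, grouped by the treatment label. The authors deposited 1 table of raw counts per gene, made per the submitters' processing notes with Trim Galore, STAR 2.5.3a and featureCounts 1.5.3 on mm10/GRCm38; whether counting used strand is not given in the sources used here. The authors' columns of their own comparison (log2 fold change, abundance, F, p and FDR) were not used. The transcripts assembled by StringTie 1.3.3 and deposited per library, with coverage and TPM, were used for coverage, the label R1 or R2 and an alternative level.

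Counts were fitted with edgeR 4.0.16 in R 4.3.3 (TMM, filterByExpr, robust quasi-likelihood test, Benjamini-Hochberg adjustment over all genes, threshold 0.05). The fit was also run on data simulated from the means and spreads of the main fit. CPM were TMM-scaled, and log2 CPM used a prior count of 2. The common biological coefficient of variation was 0.58. Of 14602 genes, 350 could not be matched to GENCODE M21 and had no GC content or length. Exact permutation tests used scipy 1.17.1. Alternatives were DESeq2 1.42.0, limma 3.58.1 (voom), other filters and scaling, trends on GC content and length, the replicate block, the label R1 or R2 and each library left out. The photoreceptor score as a covariate and the test of slopes on it were chosen after seeing the data. The members and gene lists were chosen with earlier results of these data known. Named genes were the members, Arl6, Mkks, Lztfl1 and Ift27, the 2 genes of smallest p in each of 9 related lists, and the 5 genes most correlated with the members. Genes overlapping others, Bbip1, Bbs12, Bbs4, Mkks and Arl6 among them, are uncertain without strand.

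Other marker lists, laser treated against naïve control, had median log2 fold changes of -0.70 (8 inner retina genes, 7 negative), -0.11 (12 RPE genes, 7 negative), 0.21 (8 endothelium, 1 negative), 0.39 (6 fibroblast, 2 negative), 0.09 (7 macrophage, 2 negative), 1.42 (4 Schwann cell, 1 negative) and 0.46 (6 skeletal muscle, 0 negative).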

Additional observations from a re-analysis of the deposited data

Results flagged for a closer look

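Of 66 groups of values examined, 4 held a library far from the rest, a share to be read beside the 5% that arise by chance. Among the members, Bbs7 was at 149.7 CPM in naïve control library 3, beside 40.8 to 76.4 CPM in the other 5. Of the partners, Ift27 was at 18.9 CPM in naïve control library 1, beside 12.1 to 14.4 CPM. The summed endothelium markers were at 475 CPM in laser treated library 2, beside 154 to 247 CPM, and the summed Schwann cell markers at 384.8 CPM in naïve control library 4, beside 126.7 to 194.4 CPM.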

How the results depend on the processing

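In laser treated against naïve control samples, edgeR called 0 genes, against 502 with DESeq2, 2 with a minimum of 10 counts in every library, 1 with limma voom and 0 to 4 with each library left out (4 without laser treated library 2). The 2325 genes at an unadjusted p under 0.05 became 1112 with the GC trend removed, 1451 with the replicate block as well and 1228 with the photoreceptor score and the GC trend together, and 1685 to 2771 with each library left out. Of the 95 related ciliary genes, DESeq2 called 2 in place of 0. Their 18 at an unadjusted p under 0.05 became 10, 11 and 7 under the same 3 settings, and 11 to 25 with each library left out (11 without naïve control library 3).

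The members' median log2 fold change was -0.39. With each library left out it stayed between -0.55 (without laser treated library 4) and -0.23 (without naïve control library 3). It was -0.19 with the photoreceptor score as a covariate. It moved beyond the spread between replicates under 1 of 24 alternatives, to -0.028 with the score and the GC trend together. The members called on the slope with the score numbered 2, and 2 to 3 with each library left out, 4 with DESeq2 and 0 without the 2 farthest or the 4 highest libraries. Positive slopes called over all genes numbered 352, and 242 to 347 with each library left out. They numbered 601 with DESeq2, 132 without the 2 farthest and 0 without the 4 highest libraries. The count of neighbour pairs that differed in level was 2 under all 12 alternatives run, but the pairs changed with the order, as given above. An order by TPM was not tested because Bbs7 was listed at 0 in 1 library.

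Same-numbered samples did not deviate together: 2 of 5 correlations were over 0.1, and 2 of 5 samples correlated best with their own number. With the replicate block, the members' median was -0.45, 5 members in place of 3 were lower at an unadjusted p under 0.05, and 0 genes were called. That count of members was 1 with the GC trend removed, with the photoreceptor score and with both, 2 with limma voom, with the label R1 or R2 and with the GC trend and the block together, 4 with the length trend removed, and 1 to 4 with each library left out. The share of all genes that were lower at that p was taken for the main fit only, at 7.68%. Since the members were chosen on this contrast, their counts carry no further reading. Over all genes the number at an unadjusted p under 0.05, in either direction, moved as well. It was 2325 in the main fit, 2546 with the replicate block, 1112 with the GC trend removed and 2295 with the photoreceptor score. It was 1228 with both, 2616 with limma voom, 2109 with the label and 1451 with the GC trend and the block. With the length trend removed it was 2107, and 1685 to 2771 with each library left out. The fits with a GC or length trend removed held 14252 genes, and the main fit 14602.

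Bbs10, counted 160 to 680 times in a library, had the fewest counts of the members, and depth limits its values most.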
